A study of Mus musculus with 9 samples.

Results

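The Ugt1a locus of the mouse was followed through 9 RNA-seq libraries of colon organoids, as 5 genes chosen by name: Ugt1a1, Ugt1a2, Ugt1a6a, Ugt1a6b and Ugt1a7c. They are 5 of the 48795 genes in the deposited table and 5 of the 9 Ugt1a genes listed there. Organoids are three-dimensional cultures of epithelium, here grown from colonic crypts of C57BL/6 mice and kept in WENR, a Wnt-containing medium that favours stem cells. WT organoids came from wildtype littermate controls and the AHR KO organoids from Villin-Cre Ahr fl/fl mice, in which Cre driven by Villin acts in the intestinal epithelium. Both received for 4 h either the solvent DMSO or 5 nM FICZ, a high-affinity ligand of the aryl hydrocarbon receptor (AHR). The libraries were WT DMSO (n = 2, replicates 2 and 3), WT FICZ (n = 3, replicates 1, 2 and 3), AHR KO DMSO (n = 2, replicates 1 and 3) and AHR KO FICZ (n = 2, replicates 1 and 3).

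UDP-glucuronosyltransferases attach glucuronic acid, donated by UDP-glucuronate, to lipophilic molecules, which makes these soluble enough to leave in bile, urine or faeces. The enzymes of the UGT1A family are made from a single locus: each gene has its own first exon and promoter, which is spliced to exons common to all, so the enzymes differ in the part that binds the acceptor and share the part that binds UDP-glucuronate. Ugt1a1 conjugates bilirubin, the Ugt1a6 enzymes act on small planar phenols, and the locus is a known target of AHR, of the stress-response factor NRF2 (Nfe2l2) and of nuclear receptors such as PXR (Nr1i2). Epithelia of the gut and the liver are main sites of glucuronidation.

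The labels were first checked against the targeted gene. Ahr stood at 786.5 and 858.0 normalised counts in WT DMSO and at 782.7 to 798.0 in WT FICZ, but at 1346 and 1404 in the AHR KO DMSO libraries and at 1387 and 1443 in the AHR KO FICZ libraries. The Ahr total was thus higher, not lower, in the libraries labelled AHR KO (adjusted p = 0.000194 under DMSO), and the gene total cannot show whether an exon is missing. Cyp1a1, the AHR target that oxidises FICZ, reached 6987 to 7958 normalised counts in WT FICZ and 100.3 to 138.8 in AHR KO FICZ, against 5.84 at most under DMSO. Epithelial markers were present in every library (7 of 7 genes, summed 298933 to 325290). Of the immune markers Ptprc, Adgre1 and Lyz2 were listed at 0 throughout, while Cd68, a lysosomal protein known from macrophages, was at 475.3 to 712.0 in the 9 libraries. The 5 hepatocyte markers summed to 10.3 at most.

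In the annotation used here (GENCODE M21, build GRCm38) the 9 Ugt1a genes overlap on the plus strand of chromosome 1 between 88055388 and 88220002. Their starts lie in a row, and all end in the same region. Ugt1a7c spans 88095062 to 88220002, Ugt1a6b 88103252 to 88219003, Ugt1a6a 88134809 to 88218997, Ugt1a2 88200601 to 88218997 and Ugt1a1 88211959 to 88218997. Exons 2 to 5, at 88215044 to 88218997 and 1311 bases long together, are identical in all 9. Only the first exon tells most of these transcripts apart, and it joins exon 2 at a junction that RNA-seq reads can cross. The junctions of the 5 members show this: the last 30 bases of each first exon are in lower case and the first 30 bases of the common exon 2 in capitals.
Ugt1a1: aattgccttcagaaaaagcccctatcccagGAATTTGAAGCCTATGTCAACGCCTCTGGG
Ugt1a2: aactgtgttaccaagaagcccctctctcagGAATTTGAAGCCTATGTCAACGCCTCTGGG
Ugt1a6a: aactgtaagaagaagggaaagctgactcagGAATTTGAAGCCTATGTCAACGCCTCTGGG
Ugt1a6b: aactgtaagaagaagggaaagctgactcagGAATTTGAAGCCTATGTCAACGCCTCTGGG
Ugt1a7c: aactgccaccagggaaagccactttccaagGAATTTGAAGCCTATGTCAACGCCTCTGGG

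**Figure D1:**
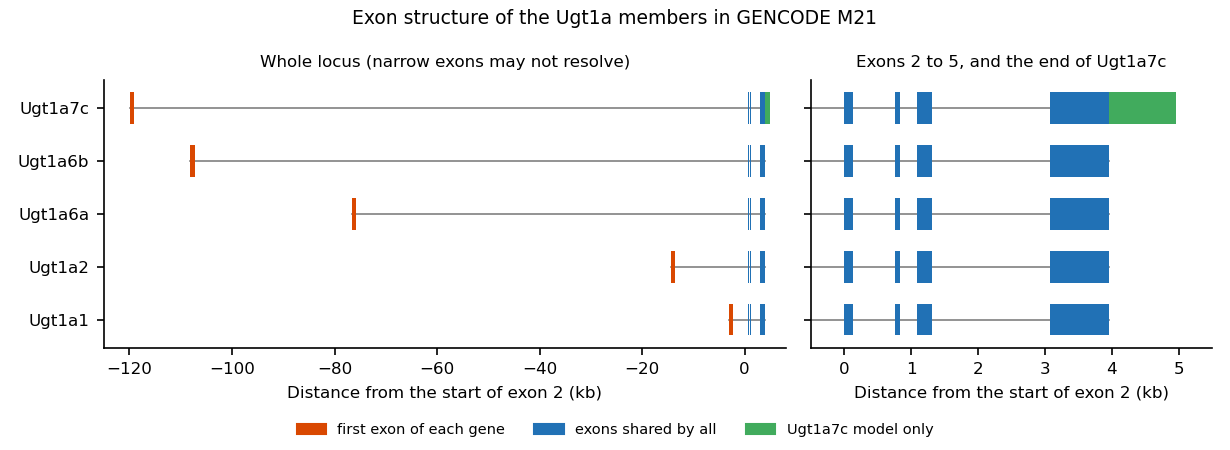
Exons of 1 transcript for each of the 5 members, placed by distance from the start of exon 2 in kb; orange marks the first exon, blue the exons common to all and green bases that only the Ugt1a7c model holds. The left panel spans the locus and the right panel enlarges exons 2 to 5, where the 5 members coincide.

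The junctions of Ugt1a6a and Ugt1a6b carried the same 60 bases, so a read confined to these bases cannot tell these genes apart. Their first exons were 96.5% identical over 938 aligned bases, whereas every other pair of members was between 59.7 and 63.8% identical. Over 859 bases of the exon they differed at 26 positions, and the 60-base window with the most of these holds 9, shown in capitals, at chr1:88138769-88138828 for Ugt1a6a and chr1:88107237-88107296 for Ugt1a6b.
Ugt1a6a: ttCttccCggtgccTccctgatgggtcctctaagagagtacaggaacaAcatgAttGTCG
Ugt1a6b: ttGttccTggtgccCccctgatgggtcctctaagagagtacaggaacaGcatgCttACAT

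The gene models also differ in ways that bear on how reads are divided. After exon 5, the Ugt1a7c model alone runs on for 998 bases, from 88219005 to 88220002, while in RefSeq 7 of the 9 genes, 4 of the 5 members among them, end at that last base. Transcripts of Ugt1a7c also take in 859 bases of the Ugt1a6a first exon (88138473 to 88139331) and a 127-base exon of Ugt1a6b (88103252 to 88103378). Between 39.4% (Ugt1a6b) and 49.7% (Ugt1a6a) of a member's exonic bases belong to no other gene of the locus. The labels name the deposited table as RSEM normalised data, and its low values carry decimals and do not recur in steps. RSEM estimates a gene's count by dividing reads that fit several genes among them. The study's methods name another counter, summarizeOverlaps on the UCSC knownGene annotation. The annotation behind the RSEM values is not given in the sources used here, and the part of the gene models in each member's level was not tested. The sum does not change with how reads are divided among the 5 members, so it is given beside the single genes, but it leaves out reads given to other genes.

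Ugt1a7c, whose product conjugates phenols and planar xenobiotics, was listed with by far the highest level of the locus, as reads were divided in the deposited table. It was listed at 4463 and 4396 normalised counts in WT DMSO and at 7786, 7799 and 8298 in WT FICZ. The AHR KO libraries held 978.9 and 793.9 under DMSO and 1127 and 832.1 under FICZ. Both WT groups lay above every AHR KO library, FICZ above DMSO within WT, and the 2 AHR KO groups overlapped.

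Ugt1a6a, the gene of a phenol-conjugating enzyme, was listed at 475.5 and 378.4 normalised counts in WT DMSO and at 718.9, 625.9 and 639.8 in WT FICZ. In AHR KO it was at 66.8 and 81.6 under DMSO and at 69.5 and 44.9 under FICZ. As for Ugt1a7c, both WT groups lay above every AHR KO library, FICZ lay above DMSO within WT, and the AHR KO groups overlapped. The AHR KO mean of Ugt1a6a was lower with FICZ (57.2) than with DMSO (74.2), whereas that of Ugt1a7c was higher (979.6 against 886.4). The lowest single value of Ugt1a6a, 44.9, was an AHR KO library with FICZ.

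Ugt1a1, the gene of the bilirubin-conjugating enzyme, was listed at 197.6 and 215.6 normalised counts in WT DMSO and at 353.1, 341.2 and 326.6 in WT FICZ. In AHR KO it was at 60.9 and 39.9 under DMSO and at 105.3 and 43.0 under FICZ. Replicate 1 was the higher of the AHR KO libraries under both treatments, and under FICZ it was more than 2 times replicate 3.

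Ugt1a6b was listed at 0 in all 4 DMSO libraries, at 11.9, 6.07 and 11.1 normalised counts in WT FICZ and at 0 and 3.26 in AHR KO FICZ. Ugt1a2 was listed at 0 in 7 of the 9 libraries and at 2.19 and 3.08 in WT FICZ replicates 1 and 2. Both stayed under the minimum mean of 10 for testing, so 3 of the 5 members were tested. A value of 0 here can be a failed division of reads as well as a missing transcript, since Ugt1a6a, with a nearly identical first exon, was above 0 in every library. Of the 4 other Ugt1a genes, Ugt1a8, Ugt1a9 and Ugt1a10 were listed at 0 throughout, and Ugt1a5 was above 0 only in WT FICZ (11.0, 0 and 3) and AHR KO FICZ (0 and 3.23).

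**Figure D2:**
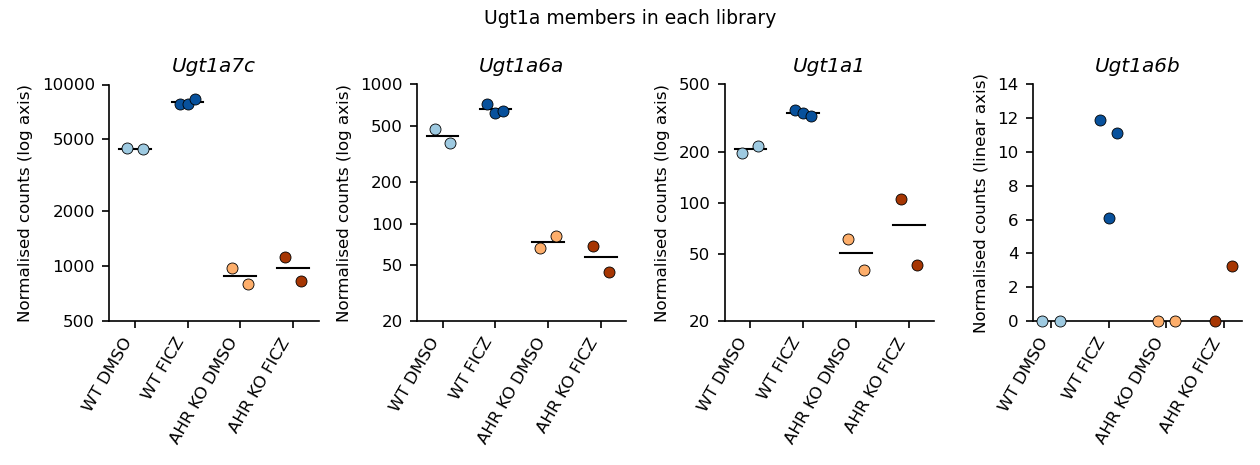
Normalised counts of 4 members in each of the 9 libraries, one point per library, with a bar at the group mean for the 3 tested genes; the axis is logarithmic for these and linear for Ugt1a6b. All WT FICZ points of Ugt1a7c (7786 to 8298) lie above WT DMSO, and all AHR KO points (793.9 to 1127) below both.

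Levels of different genes were compared per kb of transcript, using the 1 transcript per gene whose junction is printed above (2.22 kb for Ugt1a1, 2.27 kb for Ugt1a6a and 3.23 kb for Ugt1a7c). In WT DMSO the level was 1371 ± 14.5 normalised counts per kb for Ugt1a7c, 188.5 ± 30.3 for Ugt1a6a and 92.9 ± 5.73 for Ugt1a1 (mean ± SD, n = 2 each). The same order held in WT FICZ, with 2464 ± 90.3, 292.1 ± 22.2 and 153.0 ± 5.98 (SD, n = 3). In AHR KO DMSO the levels per kb were 274.3 ± 40.5, 32.7 ± 4.62 and 22.7 ± 6.65 (SD, n = 2). In AHR KO FICZ, Ugt1a7c was again highest (303.2 ± 64.6), but Ugt1a6a (19.8 to 30.7) and Ugt1a1 (19.3 to 47.3) overlapped and cannot be ordered. The part of the gene models and the division of reads in these orders was not tested.

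Summed over the 5 members, the locus held 5063 ± 102.6 normalised counts in WT DMSO (SD, n = 2) and 8974 ± 265.1 in WT FICZ (SD, n = 3). It held 1011 ± 135.2 in AHR KO DMSO and 1113 ± 267.8 in AHR KO FICZ (SD, n = 2 each). FICZ thus went with a 1.77-fold higher sum in WT, where the groups did not overlap, and a 1.10-fold higher sum in AHR KO, where they did (915.4 and 1107 against 923.2 and 1302). Without AHR KO FICZ replicate 1 the log2 ratio in AHR KO turned from 0.14 to -0.13. The sum was 5.01-fold lower in AHR KO than in WT under DMSO and 8.07-fold lower under FICZ, with no overlap. No test was made on the sum, since it is a score over chosen genes.

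**Figure D3:**
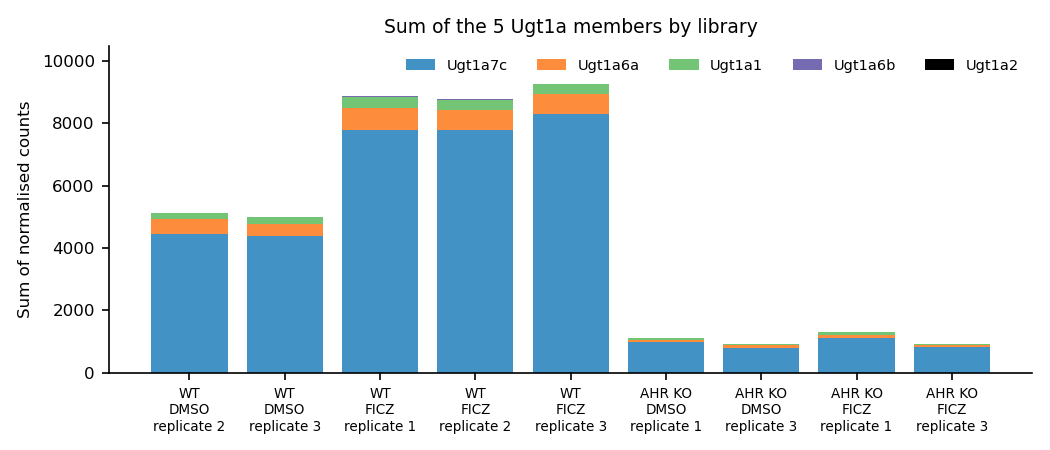
Sum of the normalised counts of the 5 members in each library, stacked by gene on a linear axis that starts at 0. The sum runs from 4991 to 5136 in WT DMSO, from 8775 to 9275 in WT FICZ and from 915.4 to 1302 over the 4 AHR KO libraries, and Ugt1a7c fills most of every bar.

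The make-up of the sum varied far less than its size. Ugt1a7c took between 86.6 and 90.1% of it in every library. Ugt1a6a took 7.58 to 9.26% in WT DMSO, 6.90 to 8.10% in WT FICZ, 6.03 to 8.91% in AHR KO DMSO and 4.86 to 5.34% in AHR KO FICZ, the last range lying below those of the other groups. Ugt1a1 took 3.52 to 5.5% except in AHR KO FICZ replicate 1, at 8.09%. Across the 9 libraries the log2 levels of the 3 tested members were correlated with Pearson's r of 0.947 (Ugt1a1 and Ugt1a6a), 0.976 (Ugt1a1 and Ugt1a7c) and 0.984 (Ugt1a6a and Ugt1a7c). These are descriptions over 4 groups of libraries and over genes whose common exons were divided among them.

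The first comparison asked how the locus responded to the AHR ligand in organoids with AHR. In WT, Ugt1a7c rose 1.80-fold with FICZ (log2 change 0.85, SE 0.119, adjusted p = 0.000863) and Ugt1a6a rose 1.56-fold (log2 change 0.64, SE 0.187, adjusted p = 0.0272), as fitted by limma on log2(value + 1) of all 9 libraries. Ugt1a1 had a log2 change of 0.72 (SE 0.31), which did not pass (adjusted p = 0.106), although all WT FICZ libraries lay above both WT DMSO libraries. So 2 of the 3 tested members were called higher, beside 15.1% of the 12741 genes tested. All 3 had groups that did not overlap in that direction, beside 27.5% of genes. Among the 1930 genes called higher, Ugt1a7c had the change of rank 219 by size and Ugt1a6a that of rank 409. The call of Ugt1a6a was lost without WT DMSO replicate 3 (log2 change 0.47, adjusted p = 0.196), without WT FICZ replicate 1 (adjusted p = 0.0805) and without WT FICZ replicate 3 (adjusted p = 0.0578). Ugt1a1 was called when only the WT libraries were fitted (adjusted p = 0.00419).

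In AHR KO, 0 of the 3 tested members were called with FICZ by limma, beside 19.7% of genes called in either direction. That share varied with the processing: 2509 of the 12741 genes were called, against 691 with a GC and length trend removed and 419 without AHR KO DMSO replicate 1. None of the 3 reached an unadjusted p under 0.05, beside 4371 of the 12741 genes that did. The log2 change was 0.14 for Ugt1a7c (95% interval -0.15 to 0.42, adjusted p = 0.504), 0.44 for Ugt1a1 (-0.31 to 1.2, adjusted p = 0.394) and -0.39 for Ugt1a6a (-0.85 to 0.06, adjusted p = 0.203). These values rest on 2 libraries a group that differ among themselves. Without AHR KO FICZ replicate 1, the log2 change of Ugt1a6a was -0.70, and Ugt1a7c and Ugt1a1 changed sign (-0.083 and -0.19). Without AHR KO FICZ replicate 3, the change of Ugt1a1 was 1.08, and without AHR KO DMSO replicate 3 that of Ugt1a7c was -0.02. Each of these fits left a single library in a group, so only the changes are given.

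Whether the FICZ response differed between the genotypes was tested by the interaction. The response in WT exceeded that in AHR KO by a log2 of 1.03 for Ugt1a6a (SE 0.278, unadjusted p = 0.00393), 0.71 for Ugt1a7c (SE 0.176, unadjusted p = 0.00234) and 0.28 for Ugt1a1 (SE 0.46, unadjusted p = 0.563). By limma 0 of the 3 were called (adjusted p = 0.265, 0.207 and 0.963), beside 0.447% of all genes. An unadjusted p under 0.05 was reached by 2 of the 3, beside 952 of the 12741 genes. The difference for Ugt1a7c was a log2 of 0.93 without AHR KO FICZ replicate 1. That for Ugt1a1 changed sign without AHR KO DMSO replicate 1 (-0.02) or AHR KO FICZ replicate 3 (-0.36). Each of these fits left a single library in a group.

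**Figure D4:**
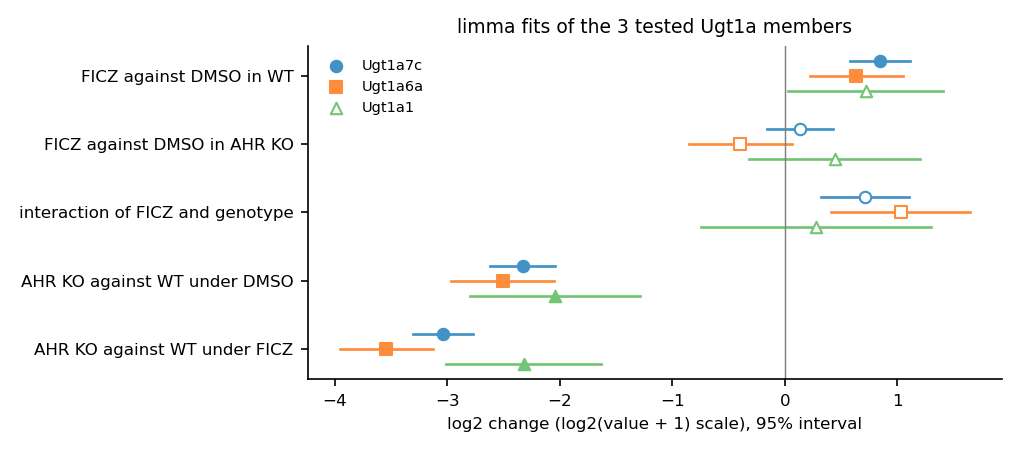
Log2 change with its 95% interval for the 3 tested members in 5 comparisons, as fitted by limma; filled symbols have an adjusted p under 0.05. The genotype differences (-2.04 to -3.54) are larger than the FICZ changes in WT (0.64 to 0.85), and no interaction is filled.

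The genotypes were then compared within each treatment. Under DMSO, Ugt1a6a was 5.68-fold lower in AHR KO (log2 difference -2.51, SE 0.205, adjusted p = 9.23e-05), Ugt1a7c 5.02-fold lower (-2.33, SE 0.13, adjusted p = 2.38e-05) and Ugt1a1 4.12-fold lower (-2.04, SE 0.34, adjusted p = 0.00482). All 3 tested members were called lower, beside 4.83% of genes, and all 3 had groups that did not overlap, beside 31.4% of genes. Fewer genes over the whole table were called in either direction whenever a DMSO library was left out. They ranked 14, 15 and 22 by size among the 616 genes called lower. The call of Ugt1a1 was lost without AHR KO DMSO replicate 3 (log2 difference -1.75, adjusted p = 0.0592).

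Under FICZ the difference was 11.6-fold for Ugt1a6a (log2 -3.54, SE 0.187, adjusted p = 2e-06), 8.21-fold for Ugt1a7c (-3.04, SE 0.119, adjusted p = 2.61e-07) and 4.99-fold for Ugt1a1 (-2.32, SE 0.31, adjusted p = 0.000573), all lower in AHR KO. The value of Ugt1a1 was -2.95 without AHR KO FICZ replicate 1 and -1.68 without replicate 3, each leaving a single library in that group. Again all 3 tested members were called lower, beside 10.5% of genes, with no overlap of the groups, beside 24.4% of genes. Ugt1a6b, which was not tested, was listed at 6.07 to 11.9 in the WT FICZ libraries and at 0 and 3.26 in the AHR KO FICZ libraries. The FICZ and genotype comparisons share libraries and are not independent of each other.

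Some markers of mature colonocytes and goblet cells were lower in AHR KO as well. Of 8 such genes none was at 0 in every library, 6 had a mean of 10 or more, and Aqp8 was at 0 in all DMSO libraries. Their summed level was 4372 to 5170 normalised counts in WT DMSO and 4467 to 5935 in WT FICZ, against 2010 to 2196 in AHR KO DMSO and 1604 to 2151 in AHR KO FICZ. Car1, a carbonic anhydrase of colonocytes, stood at 1561 to 2530 in WT and at 308.8 to 431.7 in AHR KO. Car1, Fcgbp and Krt20, each called lower in AHR KO under both treatments, make up most of the sum. The goblet cell mucin Muc2 overlapped between the genotypes, at 73.1 to 434.6 in WT and 73.4 to 156.2 in AHR KO, and was not called under DMSO (adjusted p = 0.362) or FICZ (adjusted p = 0.568). Tff3, a goblet cell peptide, was not called either (adjusted p = 0.219 and 0.0971). The summed level of 4 stem cell markers, most of it Axin2, was 4268 to 4733 in WT DMSO, 4030 to 4313 in WT FICZ, 4694 to 4944 in AHR KO DMSO and 5005 to 5173 in AHR KO FICZ. Lgr5, a receptor of intestinal stem cells, fell with FICZ in WT from 1200 and 1271 to 490.5 to 547.1 (log2 -1.28, adjusted p = 0.000105), and was at 1253 to 1579 in AHR KO. The sum of 7 fibroblast markers was 57.5 to 110.9 in WT and 19.4 to 39.1 in AHR KO, nearly all of it Pdgfrb, with Lum at 0 throughout. In bulk RNA, fewer cells of a type and less RNA per cell cannot be told apart, and the part of these shifts in the genotype difference and the FICZ response of the Ugt1a genes was not tested.

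Among regulators of the locus, Arnt, the partner of AHR, was at 1605 to 1769 normalised counts over all libraries, with a log2 genotype difference of 0.02 under DMSO (adjusted p = 0.872). Nfe2l2, which encodes NRF2, rose with FICZ in WT from 9478 ± 535.6 (SD, n = 2) to 12839 ± 263.1 (SD, n = 3) and fell in AHR KO from 8008 ± 214.2 to 6637 ± 53.0 (SD, n = 2 each), and its interaction was called (log2 0.71, adjusted p = 0.00206). Keap1, the repressor of NRF2, rose in both genotypes, by a log2 of 0.23 in WT (adjusted p = 0.01) and 0.26 in AHR KO (adjusted p = 0.0164). Nr1i2, which encodes PXR, was at 106.1 to 149.9 in WT and at 31.3 to 43.9 in AHR KO, 1.51 lower on the log2 scale under DMSO (adjusted p = 0.00264), and its change with FICZ was not called in either genotype. Nr1i3, the gene of the related receptor CAR, did not exceed 5.53 in any library.

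Promoter sequence was read from RefSeq (GRCm38.p6), where 4 of the 5 members were matched. The AHR core motif GCGTG, searched on both strands of the 250 bases before the start, was absent from these 4 windows. The Ugt1a6a window lies before its RefSeq start at 88134809, whereas the transcript whose junction is printed above starts at 88138378, and the sequence just before that start was not searched. The motif GCGTG was found in 2 of the 8 Ugt1a windows, those of Ugt1a8 and Ugt1a5, against 28.2% of 32851 promoters. TGACNNNGC, the core of the antioxidant response element bound by NRF2, was in 0 of the 8, against 10.2% of promoters. The windows of the 3 tested members are shown because their levels moved together, and that of Ugt1a5 for its match, in capitals. A missing match says only that these letters are not in the window.
Ugt1a7c, chr1:88094751-88095000, plus strand: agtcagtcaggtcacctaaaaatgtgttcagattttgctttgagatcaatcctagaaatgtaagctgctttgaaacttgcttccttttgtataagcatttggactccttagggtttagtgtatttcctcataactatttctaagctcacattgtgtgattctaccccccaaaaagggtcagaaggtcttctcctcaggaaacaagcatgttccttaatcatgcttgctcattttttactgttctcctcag
Ugt1a6a, chr1:88134559-88134808, plus strand: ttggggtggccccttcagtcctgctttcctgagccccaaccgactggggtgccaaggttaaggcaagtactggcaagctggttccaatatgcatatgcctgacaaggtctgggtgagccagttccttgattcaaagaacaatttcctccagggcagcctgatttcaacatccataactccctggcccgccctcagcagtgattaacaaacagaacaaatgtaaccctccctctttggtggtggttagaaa
Ugt1a1, chr1:88211709-88211958, plus strand: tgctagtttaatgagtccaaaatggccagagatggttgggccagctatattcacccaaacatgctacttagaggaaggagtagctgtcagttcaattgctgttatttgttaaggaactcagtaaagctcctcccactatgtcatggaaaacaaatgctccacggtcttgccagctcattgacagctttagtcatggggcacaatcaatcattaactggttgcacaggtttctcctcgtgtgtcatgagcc
Ugt1a5, chr1:88165762-88166011, plus strand: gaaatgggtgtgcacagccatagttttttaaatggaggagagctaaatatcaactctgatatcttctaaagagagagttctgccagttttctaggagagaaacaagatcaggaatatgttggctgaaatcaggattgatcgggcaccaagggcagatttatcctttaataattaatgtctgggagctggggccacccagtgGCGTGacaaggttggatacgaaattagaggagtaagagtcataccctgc

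Other genes of the conjugation pathway were described from lists of known genes, by counts and medians beside all genes. With FICZ in WT all genes had a median log2 change of -0.01, with 15.1% called higher and 15.7% lower. For genotype under DMSO the median was -0.01, with 4.21% called higher and 4.83% lower. In the AHR battery, the classical targets, 7 of 7 tested genes rose with FICZ in WT, with a median log2 change of 3.09. Of these, Cyp1a1 (5.84 normalised counts at most under DMSO) and Ahrr passed the filter on low values only through FICZ libraries. Their rise follows in part from that filter, and so do the count and the median. Slc2a6, a glucose transporter family gene, rose 9.41-fold and Aldh3a1, an aldehyde dehydrogenase, 8.52-fold, and Ahrr, the AHR repressor, went from 1.49 and 1.51 to 426.8 to 567.6 normalised counts. Nqo1, a quinone reductase, rose 3.05-fold. In AHR KO 4 of the 7 battery genes rose with FICZ and 0 fell, with a median log2 change of 0.92, beside 19.7% of all genes called in either direction. The 4 were Cyp1a1 and Ahrr, both listed at 0 in at least 1 AHR KO DMSO library, Cyp1b1 (5.72-fold, adjusted p = 0.00112) and Slc2a6 (1.90-fold, adjusted p = 0.00418). Ahrr was at 16.9 and 17.3 normalised counts in AHR KO FICZ, and was tested only because it is high in WT FICZ. The interaction was called for 5 of the 7, beside 0.447% of all genes, all with the larger response in WT. For Ahrr, one of the 5, this direction follows in part from the filter on low values, which it passed only through WT FICZ. It was not called for Cyp1a1 (adjusted p = 0.0677) or Cyp1b1 (adjusted p = 0.881). The 1.80-fold rise of Ugt1a7c was thus smaller than the changes of these genes, while the 5.02-fold genotype difference under DMSO was larger than that of Nqo1 (log2 -1.21) or Slc2a6 (-1.57) and smaller than that of Cyp1b1 (-5.44); these differences between genes were not tested. Under DMSO 5 of the 7 battery genes were lower in AHR KO and 1, Aldh3a1, was higher. The 5 include Ahrr, which passed the filter on low values through WT FICZ and whose call under DMSO sets 1.49 and 1.51 against a listing at 0 in both AHR KO libraries. Under FICZ all 7 were lower, among them again Ahrr, tested only because it is high in WT FICZ.

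Among genes of UDP-glucuronate supply and use, 11 were tested, of which 1 rose and 4 fell with FICZ in WT, with a median of -0.05. Of all genes 15.1% were called higher and 15.7% lower in that comparison. Ugdh, which oxidises UDP-glucose to UDP-glucuronate, fell from 6247 ± 21.4 (SD, n = 2) to 4627 ± 141.3 (SD, n = 3), a log2 change of -0.43 (adjusted p = 0.00218). Ugp2, which makes UDP-glucose, changed by -0.26 (adjusted p = 0.0422), Pgm2, a phosphoglucomutase, by -0.27 (adjusted p = 0.00497) and Slc35a3, a Golgi nucleotide sugar transporter, by -0.34 (adjusted p = 0.00919). Under DMSO, 2 genes of this list, Ugdh (-0.51, adjusted p = 0.0038) and Pgm2 (-0.34, adjusted p = 0.00678), were lower in AHR KO and none was higher. With FICZ in AHR KO 1 gene of the list rose and 2 fell: Gusb, a glucuronidase (log2 0.20, adjusted p = 0.032), Pgm2 (-0.24, adjusted p = 0.0207) and Slc35a3 (-0.28, adjusted p = 0.045). Ugdh (-0.23, adjusted p = 0.0765) and Ugp2 (-0.23, adjusted p = 0.106) did not pass the test there. Over all genes 19.7% were called in either direction with FICZ in AHR KO. The interaction was called for 0 of the 11, beside 0.447% of all genes.

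Of 13 other UDP-glycosyltransferase genes only Ugt2b34 and Ugt2b35 had a mean of 10 or more. Ugt2b34 was at 8131 and 8452 normalised counts in WT DMSO, 6692 to 7486 in WT FICZ, 4192 and 4256 in AHR KO DMSO and 2904 and 4675 in AHR KO FICZ. Its FICZ change in WT was not called (log2 -0.22, adjusted p = 0.298), while it was lower in AHR KO under DMSO (-0.97, adjusted p = 0.00528). Ugt8a and Ugt2b35 were at 16.2 and 30.2 at most, and 6 genes were at 0 in every library.

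Among 27 tested enzymes of other conjugations, 6 rose and 0 fell with FICZ in WT, with a median of 0.13. Of all genes 15.1% were called higher and 15.7% lower there. Mgst3 (log2 change 0.48, adjusted p = 0.00192), Gstp1 (0.46, adjusted p = 0.000192), Gstp2 (0.44, adjusted p = 0.0173) and Gsta1 (0.43, adjusted p = 0.0249), all of glutathione transfer, led these. Gstp1 and Gstp2 are near-identical copies, and reads may be shared between them. With FICZ in AHR KO 3 genes of this list rose (Mgst3, Gstp1 and Gstt2) and 2 fell (Gsta1 and Gsta4), with a median of 0.09. These calls were about as frequent as over all genes, of which 19.7% were called in either direction. The interaction was called for 1 of the 27, Gsta4, beside 0.447% of all genes. By genotype under DMSO this list went both ways, with 4 genes higher and 5 lower in AHR KO, beside 4.21% and 4.83% of all genes. Of 7 tested efflux transporters of conjugates, Abcc3, which exports glucuronides across the basolateral membrane, rose in WT from 3828 ± 90.7 (SD, n = 2) to 5116 ± 124.0 (SD, n = 3), and Abcc5 (-0.36, adjusted p = 0.0391) and Abcb1a (-0.30, adjusted p = 0.00832) fell. Abcc3 also rose in AHR KO (log2 0.34, adjusted p = 0.00369), and its genotype difference under DMSO was 0.08 (adjusted p = 0.429). Under DMSO 2 of these transporters were higher and 1 lower in AHR KO, beside the same 4.21% and 4.83% of all genes.

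Of 14 NRF2 target genes 6 rose and 0 fell with FICZ in WT, with a median of 0.13, beside 15.1% of all genes called higher and 15.7% lower. Besides Nqo1, which is on the AHR list too, Osgin1, an oxidative stress response gene, rose 2.89-fold, Srxn1, which repairs oxidised peroxiredoxins, 1.59-fold and Gclc, of glutathione synthesis, 1.28-fold. With FICZ in AHR KO 2 of the 14 rose (Srxn1 and Taldo1) and 2 fell (Gclm and Gsr), beside 19.7% of all genes called in either direction. The interaction was called for 2, Nqo1 and Osgin1, beside 0.447% of all genes. Under DMSO 1 of the 14, Nqo1, was lower in AHR KO and 1 higher, with a median of -0.02, against 3 of 3 tested Ugt1a members lower. Under FICZ 8 were lower and 3 higher, where 10.5% of all genes were called lower and 9.48% higher. Over the 5 lists other than the AHR battery, the medians lay between -0.57 and 0.13 with FICZ in WT.

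**Figure D5:**
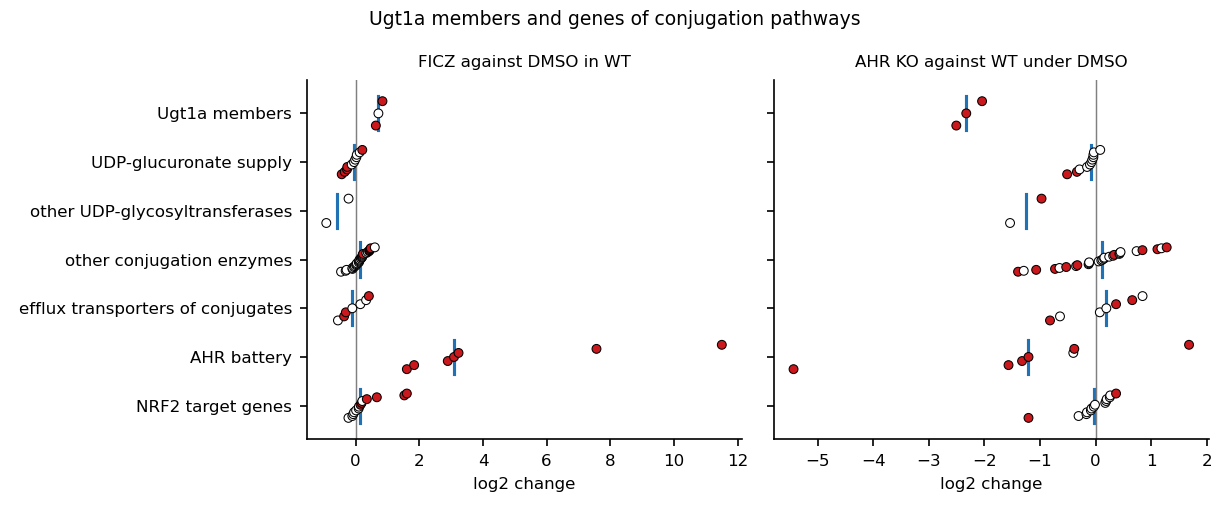
Log2 change of each tested Ugt1a member and list gene with FICZ in WT (left) and for AHR KO against WT under DMSO (right), one point per gene; red points have an adjusted p under 0.05 in limma and blue lines mark medians. The AHR battery has the largest median with FICZ (3.09), which includes Cyp1a1 and Ahrr, tested only because they are high in FICZ libraries. The Ugt1a members lie between -2.04 and -2.51 by genotype.

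The genes whose pattern over the 9 libraries was most like the summed locus were sought among 10579 protein-coding genes with a mean of 50 or more. The highest Pearson's r with the log2 sum were those of Cdx1 (0.996), an intestinal homeobox factor, Nlrp6 (0.994), an epithelial innate immune receptor, Ppp1r14d (0.994), a phosphatase inhibitor, Sytl2 (0.993), of vesicle trafficking, and Irf8 (0.991), an interferon regulatory factor. These are descriptions over 9 libraries in 4 groups. Cdx1 was at 2808 and 3092 normalised counts in WT DMSO, 3662 to 4040 in WT FICZ, 1325 and 1336 in AHR KO DMSO and 1276 and 1634 in AHR KO FICZ. Sytl2, with 384.5 and 472.2, 906.1 to 1011, 102.3 and 123.3, and 85.4 and 116.9 in the same order, had the largest FICZ change in WT of these 5 (log2 1.15, adjusted p = 0.000652). The interaction of Sytl2 was called (log2 1.32, adjusted p = 0.0416) and that of Cdx1 was not (0.28, adjusted p = 0.72). Of the regulators, Nr1i2 ranked 35 in this likeness (r = 0.976), Nfe2l2 234 (0.927), Keap1 2137 (0.563), Arnt 5556 (-0.006) and Ahr 10514 (-0.972). The AHR battery was spread widely, with Cyp1b1 at 107 (0.955), Nqo1 at 127 (0.95), Slc2a6 at 433 (0.888), Tiparp at 621 (0.854), Ahrr at 1497 (0.677), Cyp1a1 at 2018 (0.584) and Aldh3a1 at 4171 (0.222).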

How the data were processed

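RNA-seq of total RNA (TruSeq stranded, ribosomal RNA depleted) was measured in 9 libraries. The authors deposited 1 table of normalised estimated counts, a signal of values from 0 upwards with decimals. Per the labels' processing notes STAR 2.5.2a, RSEM 1.2.31, DESeq2 1.16.1 and GRCm38 were used, and the labels name the table as RSEM normalised data; the methods name summarizeOverlaps on UCSC knownGene instead, and the annotation behind the table is not given in the sources used here. Libraries summed to 23177058 to 25033827 after scaling, which is not their depth. Low values did not recur in whole steps, so no count model was used and the precision of low values is unknown.

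Of 48795 identifiers 48349 (99.1%) matched GENCODE M21. limma 3.58.1 (R 4.3.3, trended eBayes) was fitted to log2(value + 1) of all 9 libraries in 4 groups, over 12741 genes with a mean of 10 or more, with two-sided Benjamini-Hochberg adjusted p under 0.05 as the call, and was tested on simulated data. Fold changes on this scale understate those of low genes. The methods state biological replicates. With 2 or 3 libraries a group, p-values rest on the spread within all 4 groups together, moderated by a trend over genes. They do not measure the spread of the compared groups alone. Alternatives covered pseudocount, filter, scaling (TMM, quantile), fit and left-out libraries. The text names the 5 members, the other Ugt1a genes, up to 4 called genes per list with the largest change with FICZ in WT, 6 regulators and the 5 genes of most like pattern; genes named besides these were chosen after their values were seen. The members and lists were chosen with earlier results of these data known. Columns for 9 of 9 libraries were used. Exon sequences came from GENCODE M21 and promoter sequences from RefSeq. Motifs were searched as fixed letters, and first exons were aligned with Biopython.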

Additional observations from a re-analysis of the deposited data

How the results depend on the processing

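With TMM scaling, quantile normalization or all 9 Ugt1a genes summed, the log2 ratio of the locus sum moved by less than the spread between replicates. Leaving out a library from a group of 2 or 3 cannot shift the group mean by as much as that spread, so it was no test of this. The share of Ugt1a7c had 1 alternative, the sum over all 9 genes, and hardly moved (88.06 and 88.11%). Over all alternatives the log2 ratio of the sum ranged from 0.80 to 0.86 for FICZ in WT and -0.13 to 0.36 for FICZ in AHR KO. For genotype it ranged from -2.47 to -2.19 under DMSO and -3.28 to -2.79 under FICZ. Of 303 alternative values of single members, 282 kept direction and side of the threshold, and 5 reversed, each on leaving out a library, where Ugt1a1 and Ugt1a7c in AHR KO spanned -0.19 to 1.08 and -0.083 to 0.35 and the interaction of Ugt1a1 -0.36 to 0.91: Ugt1a1 and Ugt1a7c with FICZ in AHR KO without AHR KO FICZ replicate 1 (-0.19 and -0.083), Ugt1a7c there without AHR KO DMSO replicate 3 (-0.02), and the interaction of Ugt1a1 without AHR KO DMSO replicate 1 (-0.02) or AHR KO FICZ replicate 3 (-0.36). Leaving out single libraries, the members called ranged from 1 to 3 for FICZ in WT, 0 to 1 in AHR KO, 0 to 1 for the interaction, 2 to 3 for genotype under DMSO and stayed at 3 under FICZ, and the list genes called with FICZ in WT from 15 (without WT DMSO replicate 2) to 28, against 26 with all libraries; fewer libraries entered these fits, and the cause was not tested. With no filter on low values, over 23637 genes, 3 members were called for FICZ in WT beside 3325 genes, and 4 for genotype under FICZ beside 2113 genes. The added member is Ugt1a6b (adjusted p = 0.00601 and 0.0452), which is listed at 0 in every DMSO library.

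The genes called over the whole table ranged from 1718 to 4135 for FICZ in WT (3928 as reported), 419 to 2957 in AHR KO (2509), 23 to 78 for the interaction (57), 389 to 1624 for genotype under DMSO (1153) and 1324 to 3089 under FICZ (2544). With a GC and length trend removed they were 2319 for FICZ in WT and 691 in AHR KO, and 1718 and 544 with the replicate block added; the cause was not tested. No label says that a shared replicate number is a shared line. Over the genes with a mean of 10 or more, deviations from group means of same-numbered libraries correlated at 0.035 to 0.05. In groups of 2 libraries the deviations mirror each other, and mismatched libraries were not compared. The check therefore cannot decide whether single genes such as the Ugt1a members are paired. With the replicate block, Ugt1a6a in WT had log2 0.58 (adjusted p = 0.082), Ugt1a1 0.69 (0.0367) and the interaction of Ugt1a7c 0.73 (0.0195), so 1 member was called for the interaction, beside 52 of all genes, and 1 with the block and the GC and length trend removed (0.72, adjusted p = 0.0281), beside 47. Groups of 2 libraries and the unknown depth limit these values.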
